A study of Danio rerio with 4 samples.

Results

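The cytosolic HSP70 and HSP90 chaperone genes of zebrafish were followed in sorted blood stem and progenitor cells of smu07 mutant larvae and their siblings. The set held 10 genes, all present among the 30838 rows of the deposited table and found there by gene symbol: hsp70l, hsp70.1, hsp70.3, hsph1, hsp90aa1.1 and hsp90aa1.2, taken as heat-inducible, and hspa8, hspa4a, hspa4b and hsp90ab1, taken as constitutive. The 10 genes were chosen by symbol with the mutant-sibling differences of these same libraries already known, in which hsp70l and hsp70.3 stood out. Their differences between the groups are therefore given as a description, without p-values, and nothing is supported with them. The division into the 2 classes follows general knowledge of the families and not these values, but it was made with those differences known.

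The groups were 2 libraries of smu07 mutants and 2 libraries of siblings, all of the AB strain, untreated, raised in egg water at 28 °C and taken at 4 days post fertilization. The labels do not describe the smu07 lesion, and they name the other group siblings, whereas the design text calls those cells wild-type. The series title names slc20a1b, a phosphate transporter gene. Each library came from about 500 cells with low cd41:eGFP fluorescence, sorted after the larvae were ground and enzymatically dissociated, and its cDNA was amplified. Nothing in the labels says whether the 2 libraries of a group came from separate clutches or sorts, so the errors and the tests rest on a spread between libraries that may be technical.

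HSP70 proteins bind exposed hydrophobic stretches of unfolded proteins in an ATP-driven cycle, HSP40 proteins deliver the substrates, and HSP110 proteins exchange the nucleotide. HSP90 dimers take over late folding intermediates such as kinases and steroid receptors. Each family has constitutive copies for everyday folding and copies that heat shock factor switches on when damaged proteins accumulate. In blood cell progenitors, human HSP70 is known for protecting the erythroid factor GATA1 from proteolysis.

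Of the 9 progenitor markers checked, all were above 0 in all 4 libraries. Called lower in mutants were 4 and higher 1, beside 18.6% and 9.91% of all genes tested. The transcript behind the sorting gate, itga2b, which encodes the cd41 integrin, read 23.5 and 19.3 TPM in mutant libraries and 50.8 and 66.9 TPM in sibling libraries. Recovered depth was 28274779 and 29948918 reads for mutants, against 25102929 and 26598635 reads for siblings. Genes above 0 numbered 23881 and 23978 in mutant libraries and 19528 and 19811 in sibling libraries. The part of this unequal detection in the differences was not tested. TPM, the unit of the table, divides reads by gene length and scales each library to the same total. Tests covered the 12073 genes averaging 1 TPM or more, as log2(TPM + 1) with limma, and called at a Benjamini-Hochberg adjusted p under 0.05. This called 1196 genes higher and 2247 lower in mutant libraries. Lower calls made up 65.3% of all calls with the values as deposited, 54.2% once libraries were rescaled by the median of ratios and 51.1% after quantile normalization. With no filter on low values the majority turned, with 1321 genes higher and 1124 lower, so that 46.0% of calls were lower. In sorted pools, fewer cells of a type and less RNA per cell cannot be told apart.

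The heat-inducible HSP70 copies were among the most abundant transcripts of these cells, and their mutant means stood at 30.9, 41.7 and 48.0% of the sibling means for hsp70l, hsp70.3 and hsp70.1. The transcript hsp70l, an intron-less heat-inducible HSP70 gene whose promoter is widely used in zebrafish transgenes, read 1862 and 1726 TPM in mutant libraries, against 5721 and 5902 TPM in sibling libraries. Its log2 difference, mutant minus sibling, was -1.70 (SE 0.07). The groups did not overlap, and the replicates of each group differed far less than the groups. The gene hsp70.3 read 2862 and 2467 TPM in mutant libraries and 6442 and 6328 TPM in sibling libraries. It was the most abundant of the 10 transcripts in siblings, and its log2 difference was -1.26 (SE 0.09). The copy hsp70.1 read 1478 and 1338 TPM in mutant libraries and 2965 and 2897 TPM in sibling libraries, a log2 difference of -1.06 (SE 0.08). Over the 4 mutant-sibling pairs of libraries the ratio ranged from 0.292 to 0.325 for hsp70l, from 0.383 to 0.452 for hsp70.3 and from 0.451 to 0.510 for hsp70.1.

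**Figure D1:**
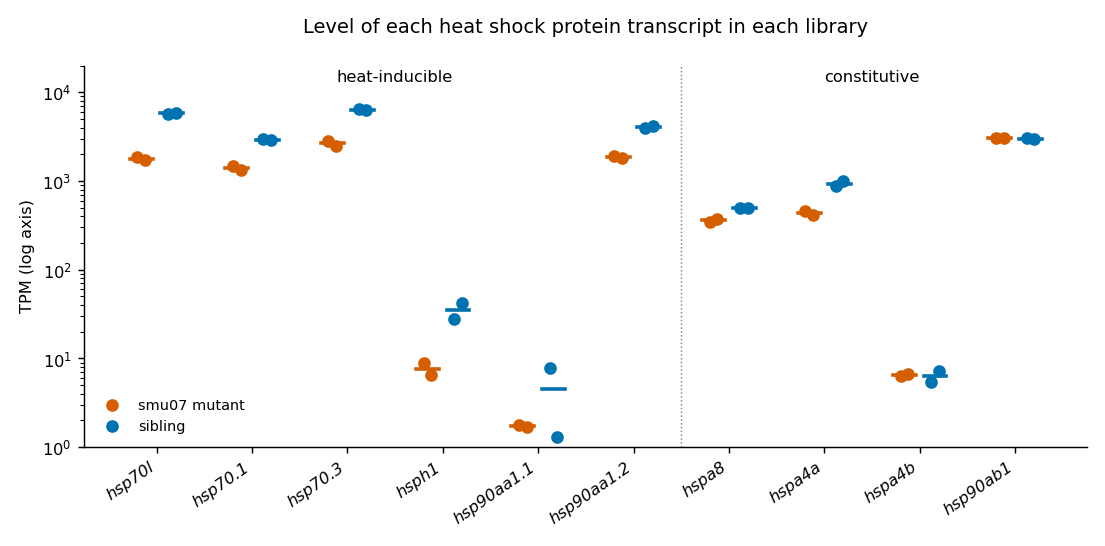
TPM of each gene (log axis) in each of the 4 libraries; points are libraries, lines are means of 2, orange is smu07 mutant and blue sibling. The 3 heat-inducible HSP70 copies, hsph1 and hsp90aa1.2 lie lower in both mutant libraries, and so do the constitutive hspa8 and hspa4a. The constitutive hsp90ab1 lies between 2965 and 3075 TPM in all 4.

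These copies are close relatives, and the sequences were not compared here. In the RefSeq annotation of GRCz12tu, hsp70.1, hsp70.2 and hsp70.3 follow one another on the chromosome, and hsp70l lies elsewhere. The gene hsp70.2 was matched to no row and was not analysed here. How reads matching several copies were assigned is not given in the sources used here, so the split between hsp70l, hsp70.1 and hsp70.3 is uncertain. Their sum is uncertain too, since any reads set aside would be missing from it. It also depends on the split, because the implied lengths differ (4692 bases for hsp70.1, 2302 for hsp70l and 2358 for hsp70.3). The sum was 6202 and 5531 TPM in mutant libraries and 15127 and 15128 TPM in sibling libraries. It amounted to 0.620 and 0.553% of all TPM in mutant libraries and to 1.51% in both sibling libraries, and the ratio of the mutant to the sibling mean was 0.388.

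The recovered reads gave the depth behind these levels. For hsp70l they numbered 89794 and 87938 in mutant libraries and 233676 and 252577 in sibling libraries. For hsp70.1 they numbered 145249 and 138976 in mutant libraries and 246841 and 252666 in sibling libraries, and for hsp70.3 141382 and 128764 in mutant libraries and 269525 and 277399 in sibling libraries. Counting error is thus small beside the differences, although amplified reads that carry no molecular identifiers do not count molecules. The values imply a gene length of 4692 bases for hsp70.1, against 2302 for hsp70l and 2358 for hsp70.3. Scaled by library total but not by length (RPM), the 3 copies were close in siblings, at 9309 and 9496 RPM for hsp70l, 9833 and 9499 for hsp70.1 and 10737 and 10429 for hsp70.3, so the lower TPM of hsp70.1 goes with its longer annotated length. The proportions within a library also differed between the groups. The ratio of hsp70l to hsp70.3, on the TPM scale, was 0.651 and 0.700 in mutant libraries and 0.888 and 0.933 in sibling libraries, while that of hsp70.1 to hsp70.3 was 0.516 and 0.542 in mutant libraries and 0.460 and 0.458 in sibling libraries.

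The constitutive HSP70 gene hspa8, whose product HSC70 does everyday folding, clathrin uncoating and chaperone-mediated autophagy, differed less. It read 347 and 376 TPM in mutant libraries and 500.5 and 494 TPM in sibling libraries. The log2 difference was -0.46 (SE 0.08), the mutant mean being 72.6% of the sibling mean, and the groups did not overlap. Under the other scalings it was nearer 0, at -0.36 with median-of-ratios scaling and -0.28 with quantile normalization. Within a library, the 3 heat-inducible copies together exceeded hspa8 by 17.9- and 14.7-fold in mutant libraries and by 30.2- and 30.6-fold in sibling libraries. These folds are on the TPM scale and depend on the implied lengths, that of hspa8 being 4667 bases. They also carry the uncertainty of the summed copies described above. The ratio of the 3 copies to hspa8 does not depend on any scaling factor between libraries. In mutants it averaged 0.536 of the sibling value, with a range over the 4 pairs of 0.481 to 0.592. Quantile normalization, which is not a single factor, did move it: its log2 difference between the groups went from -0.91 to -1.14.

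The abundant HSP90 genes, hsp90aa1.2 and hsp90ab1, had unlike differences between the groups. The heat-inducible hsp90aa1.2 read 1921 and 1840 TPM in mutant libraries, against 3985 and 4220 TPM in sibling libraries. Its log2 difference was -1.12 (SE 0.07), with a mutant mean at 45.8% of the sibling mean. The constitutive hsp90ab1, which encodes HSP90 beta, read 3046 and 3075 TPM in mutant libraries and 3031 and 2965 TPM in sibling libraries. Both mutant libraries thus lay just above both sibling libraries, by a log2 difference of 0.030 (SE 0.06). That small difference changed with the scaling, to 0.13 under median-of-ratios scaling and to -0.17 under quantile normalization. The transcript hsp90aa1.2 lay under hsp90ab1 in mutants and above it in siblings, with a ratio of 0.631 and 0.598 in mutant libraries and 1.31 and 1.42 in sibling libraries. On the log2 scale the ratio differed by -1.16 between the groups, and by -1.21 to -1.10 as 1 library was left out. After quantile normalization it differed by -1.04.

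**Figure D2:**
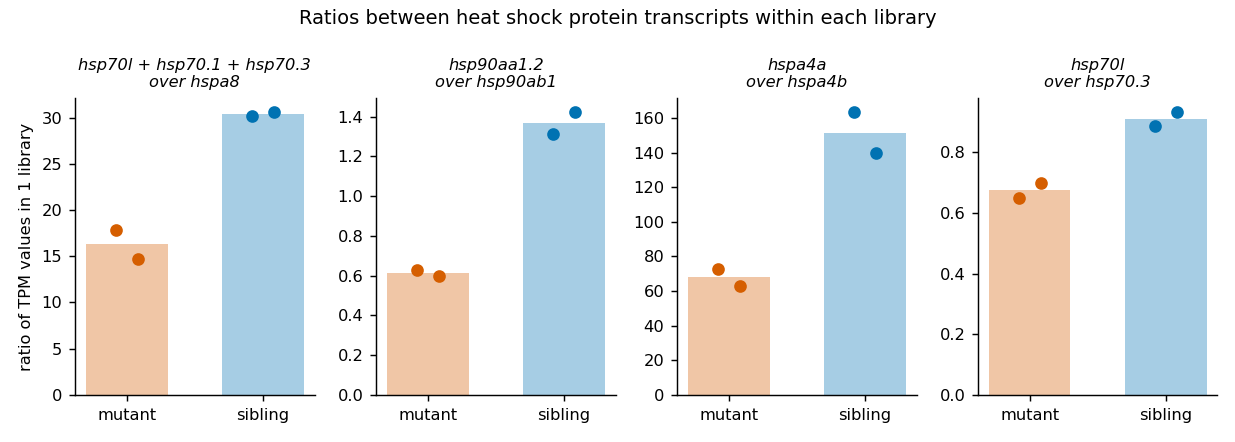
Ratios of TPM values within each library, with points for libraries and bars for the mean of 2; orange is smu07 mutant and blue sibling, and each panel starts at 0. The ratio of hsp90aa1.2 to hsp90ab1 is 0.631 and 0.598 in mutant libraries and 1.31 and 1.42 in sibling libraries, and the other 3 ratios are also lower in both mutant libraries.

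The second alpha gene, hsp90aa1.1, best known in zebrafish for myosin folding in developing skeletal muscle, was near the floor. It read 1.76 and 1.67 TPM in mutant libraries and 7.87 and 1.29 TPM in sibling libraries, resting on 88 and 88 reads in mutant libraries and 333 and 57 in sibling libraries. The groups overlapped, and 1 sibling library set the mean: the log2 difference was -0.73 (SE 0.60) with all libraries, 0.25 without sibling replicate 1 and -1.71 without sibling replicate 2. In the RefSeq annotation hsp90aa1.1 lies next to hsp90aa1.2. A few reads of the abundant copy assigned to hsp90aa1.1 would be visible at this level, and whether there were any was not tested. In mutant libraries its level was 0.0917 and 0.0906% of that of hsp90aa1.2, and in sibling libraries 0.198 and 0.0305%. The 6 muscle markers checked had a summed level of 8.61 and 9.32 TPM in mutant libraries and 5.48 and 6.49 TPM in sibling libraries. Of the 3 tested 1 was called higher, beside 9.91% of all genes tested. This was tpma, at 1.63 and 3.05 TPM in mutant libraries and 0.287 and 0.117 TPM in sibling libraries. The marker ckma was listed at 0 in all 4 libraries.

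The HSP110 genes, nucleotide exchange factors for HSP70, differed from one another. Among these HSP110 genes, only hspa4a had a log2 difference inside the range of the other class. The heat-inducible hsph1 was low in these cells, at 8.95 and 6.45 TPM in mutant libraries and 27.7 and 42.3 TPM in sibling libraries. Its log2 difference of -2.04 (SE 0.25) was the largest of the 10, with groups that did not overlap and a mutant mean at 22.0% of the sibling mean. It rested on 746 and 568 reads in mutant libraries and 1958 and 3131 in sibling libraries, and ranged from -2.33 to -1.74 over the alternatives. The gene hspa4a, placed with the constitutive copies, read 459 and 418 TPM in mutant libraries and 881 and 996 TPM in sibling libraries. Its log2 difference was -1.10 (SE 0.10), inside the range of the heat-inducible HSP70 and HSP90 copies. Its paralog hspa4b read 6.32 and 6.63 TPM in mutant libraries and 5.39 and 7.14 TPM in sibling libraries, with overlapping groups and a log2 difference of 0.051 (SE 0.19), which was -0.12 without sibling replicate 1. The ratio of hspa4a to hspa4b was 72.6 and 63.1 in mutant libraries and 163 and 140 in sibling libraries.

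**Figure D3:**
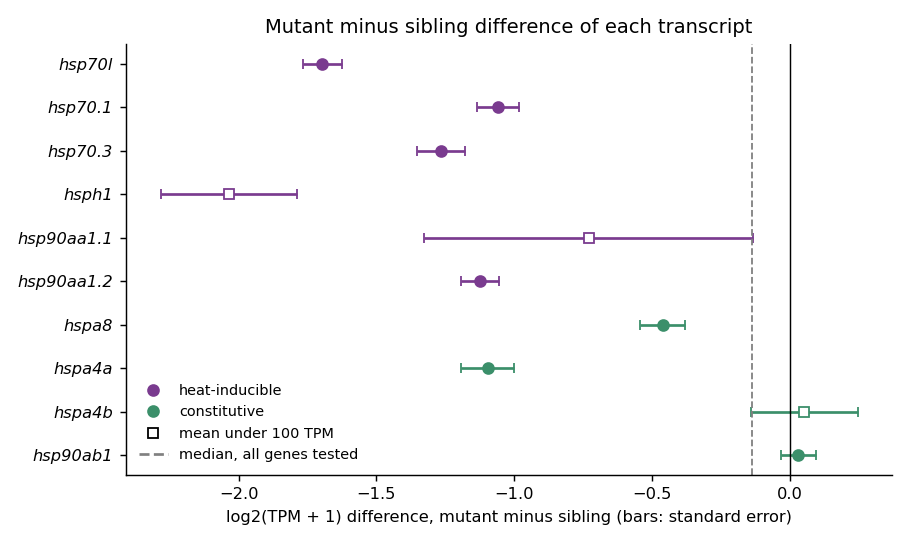
Difference in log2(TPM + 1), mutant minus sibling, for each gene; bars are standard errors from the model over all genes, purple marks heat-inducible and green constitutive genes, open squares have a mean under 100 TPM, and the dashed line is the median of all 12073 genes tested (-0.14). The green point of hspa4a at -1.10 lies among the purple ones, and hsp90aa1.1 has the widest bar.

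Across the set, the 6 heat-inducible genes had a median log2 difference of -1.19 (range -2.04 to -0.73), beside -0.14 over all genes tested. The 4 constitutive genes had a median of -0.22 (range -1.10 to 0.05). In a fit of the 7337 genes averaging 5 TPM or more, the median over all of them was -0.23. Of these 2195 were called lower, a larger share than in the main fit. The constitutive median was 0.03 when hspa4a was counted as heat-inducible, an alternative chosen after its value was seen. Called lower in the fit over all genes were 7 of the 10, namely hsp70l, hsp70.1, hsp70.3, hsph1, hsp90aa1.2, hspa8 and hspa4a, where the background was 18.6% of genes tested. Called higher were 0 of the 10, where the background was 9.91%. At an unadjusted p under 0.05 in limma 0 of the 10 were higher, beside 1821 of the 12073 genes tested. In limma-voom on recovered reads 0 of the 10 were higher at that threshold, beside 2203 of 12068. Among the 144 genes averaging 1000 TPM or more, 26 were called lower (18.1%) and 50 higher, and their median log2 difference was 0.07. In the same 7 genes both mutant libraries lay below both sibling libraries, which held for 44.0% of genes tested. Since the genes were picked with this contrast known, nothing is read from these counts. Without the mean-variance trend 6 of the 10 were called lower, hspa8 no longer among them, beside 1541 of the 12073 genes tested. The calls also rested on both mutant libraries: without mutant replicate 1 the count was 4 (hsp70l, hsp70.1, hsp70.3 and hsp90aa1.2), and without mutant replicate 2 it was 2 (hsp70l and hsp70.3), when 8 and 4 of all genes were called lower.

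Summed over the 10 genes, the level was 11991 and 11254 TPM in mutant libraries and 23565 and 23854 TPM in sibling libraries. The heat-inducible genes made up 8133 and 7379 TPM of this in mutant libraries and 19148 and 19392 TPM in sibling libraries, and the constitutive genes 3858 and 3875 TPM in mutant libraries and 4417 and 4463 TPM in sibling libraries. The composition differed accordingly. The share of hsp70l, hsp70.1 and hsp70.3 was 51.7 and 49.1% in mutant libraries and 64.2 and 63.4% in sibling libraries, whereas hsp90ab1 alone held 25.4 and 27.3% in mutant libraries and 12.9 and 12.4% in sibling libraries.

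**Figure D4:**
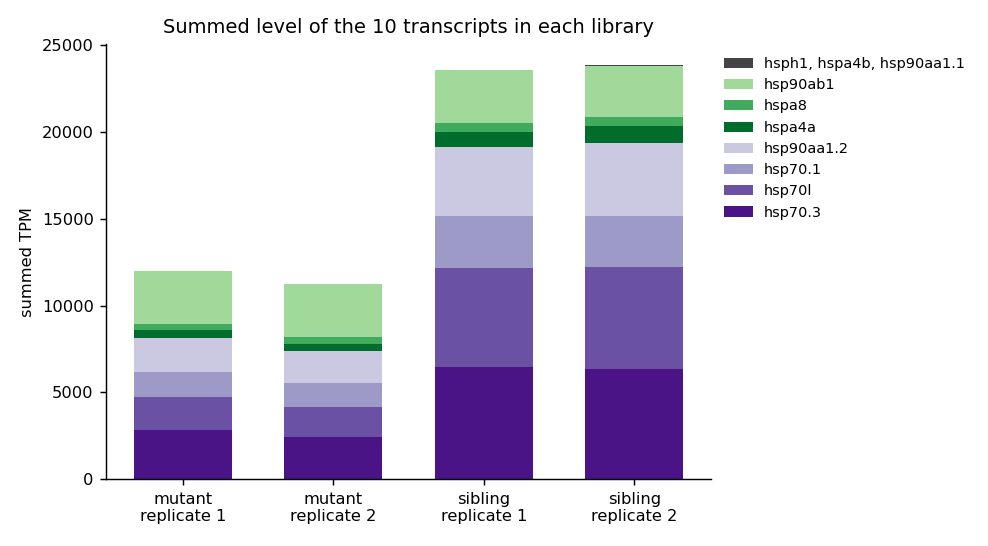
Summed TPM of the 10 genes in each library, mutant libraries left and sibling libraries right; purple shades are heat-inducible and green shades constitutive genes. The stacks reach 11991 and 11254 TPM in mutant libraries and 23565 and 23854 TPM in sibling libraries, with hsp90ab1 of nearly equal height in all 4.

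The order of the levels on the TPM scale differed between the groups. In mutant libraries hsp90ab1 came first, followed by hsp70.3, hsp90aa1.2, hsp70l and hsp70.1, then hspa4a and hspa8, and at low level hsph1, hspa4b and hsp90aa1.1. Within that order the libraries of hsp90aa1.2 and hsp70l overlapped, as did those of hsph1 and hspa4b. In sibling libraries hsp70.3 came first, followed by hsp70l, hsp90aa1.2, hsp90ab1 and hsp70.1, with hspa4a, hspa8, hsph1, hspa4b and hsp90aa1.1 after them, and there only hspa4b and hsp90aa1.1 overlapped as neighbours. Among all genes tested, ranked by mean TPM over the 4 libraries, hsp70.3 was at place 38, hsp70l at 48, hsp90ab1 at 58, hsp90aa1.2 at 61 and hsp70.1 at 82, while hspa8 was at 299 and hsp90aa1.1 at 8679.

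The partners of these chaperones came from a list of 71 genes, written with earlier results of these data known, of which 47 were tested. Of these 26 fell, 1 rose and 20 did not pass, with a median log2 difference of -0.49 beside -0.14 over all genes tested, of which 18.6% fell and 9.91% rose. Without mutant replicate 1 the count that fell was 1 (ahsa1b), and without mutant replicate 2 it was 0, although 25 and 24 genes of the list, none of them higher, then had an unadjusted p under 0.05 in limma, as did 2879 of 11964 and 3116 of 11954 genes in all. With limma-voom on recovered reads 23 fell, beside 2038 of 12068 genes in all. In the fit of genes averaging 5 TPM or more 23 fell, beside 2195 of 7337 genes. That background share is larger than the 18.6% given here.

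HSP40 and nucleotide exchange partners of HSP70 fell in 7 of the 13 genes tested, beside 18.6% of all genes. The HSP40 gene dnajb1b, itself a heat shock factor target, read 858 and 863 TPM in mutant libraries and 1753 and 1741 TPM in sibling libraries (log2 difference -1.02, SE 0.07, limma adjusted p = 0.00231). In the same sub-list the HSP40 gene dnaja1 and the exchange factor gene hspbp1 fell, with log2 differences of -1.07 and -0.82 (limma adjusted p = 0.00695 and 0.00546).

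HSP90 cochaperones fell in 11 of the 17 genes tested, beside 18.6% of all genes. The immunophilin gene fkbp4, which serves steroid receptor complexes, read 64.0 and 65.5 TPM in mutant libraries and 196 and 211 TPM in sibling libraries (log2 difference -1.64, SE 0.10, limma adjusted p = 0.00199). The ATPase activator gene ahsa1b read 394 and 368 TPM in mutant libraries and 954 and 1011 TPM in sibling libraries (log2 difference -1.36, SE 0.08, limma adjusted p = 0.00199). The HSP70-HSP90 adaptor gene stip1 fell by 0.82 (SE 0.08, limma adjusted p = 0.00497). These cochaperones serve both HSP90 copies described above, of which hsp90aa1.2 was at 45.8% and hsp90ab1 at 102% of the sibling mean.

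Of the heat shock factor and regulator genes, 1 of 4 tested rose, 0 fell and 3 did not pass. Over all genes tested 9.91% rose and 18.6% fell. The transcripts of hsf1 and hsf2 were low. The gene hsf1, the main activator of heat-inducible chaperones, read 8.81 and 9.81 TPM in mutant libraries and 5.34 and 5.91 TPM in sibling libraries. It rose by 0.64 on the log2 scale (SE 0.17, limma adjusted p = 0.0382), a call lost under several alternatives, among them no filter and leaving out either mutant library; over all alternatives the adjusted p ranged from 0.00900 to 0.274. The gene hsf2 read 33.9 and 31.1 TPM in mutant libraries and 30.8 and 37.0 TPM in sibling libraries and did not pass (log2 difference -0.053, SE 0.14, limma adjusted p = 0.801), with a sign that changed under median-of-ratios scaling (0.044) and quantile normalization (0.19). The activity of a heat shock factor is set largely on the protein, which was not measured.

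Of the other HSP70, HSP110 and HSP90 genes, among them those of the endoplasmic reticulum, 6 of 9 tested fell and 3 did not pass, beside 18.6% of all genes tested that fell. The endoplasmic reticulum HSP90 gene hsp90b1 read 69.9 and 66.3 TPM in mutant libraries and 155 and 162 TPM in sibling libraries (log2 difference -1.21, SE 0.10, limma adjusted p = 0.00334). Its HSP70 and HSP110 counterparts hspa5 and hyou1 fell, with log2 differences of -0.77 and -0.85 (limma adjusted p = 0.00774 and 0.0114). Of the small heat shock protein and chaperonin genes, 2 of 4 tested fell, with a median log2 difference of 0.079 over the 4. These were the mitochondrial chaperonin genes hspd1 and hspe1, with log2 differences of -0.64 and -0.39 (limma adjusted p = 0.00790 and 0.0423). The call of hspe1 was lost under most alternatives, among them median-of-ratios scaling (-0.29, limma adjusted p = 0.10) and quantile normalization (-0.19, limma adjusted p = 0.222). All of these differences were smaller in size than that of hsp70l, a comparison that was not tested.

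**Figure D5:**
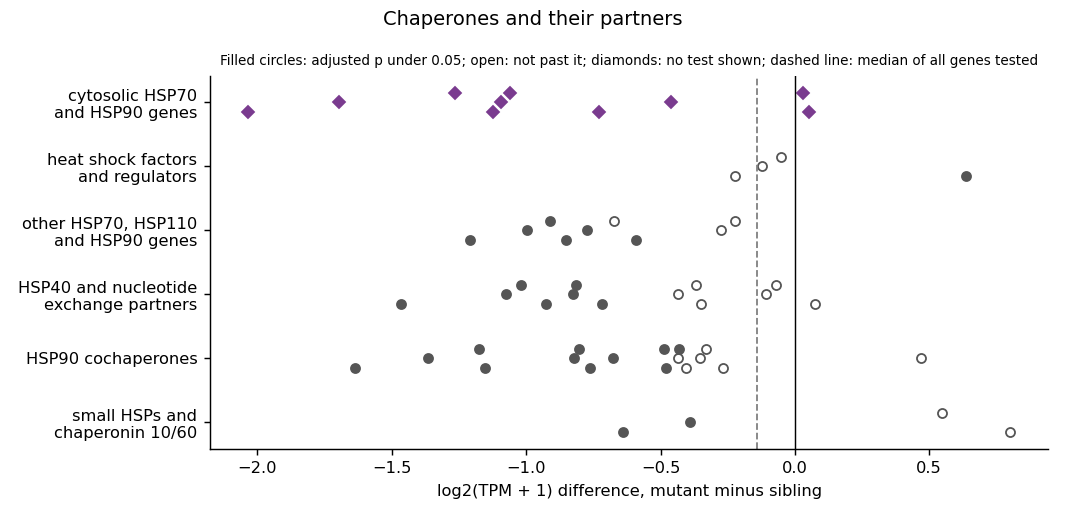
Difference in log2(TPM + 1), mutant minus sibling, for the 10 cytosolic HSP70 and HSP90 genes (purple diamonds) and for the tested genes of each sub-list of partners (circles, filled where the limma adjusted p was under 0.05). The dashed line is the median of all genes tested (-0.14); 26 filled circles lie left of 0 and the 1 on the right is hsf1.

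By likeness of profile over the 4 libraries (root-mean-square distance of the mean-centred log2(TPM + 1) values, among 7328 other genes averaging 5 TPM or more), the genes nearest to hsp70l were pdk2b, sele, pdia4, fkbp4 and nck2b, at distances of 0.046 to 0.068. Among them pdia4 encodes a disulfide isomerase of the endoplasmic reticulum and fkbp4 is the HSP90 cochaperone gene above. The nearest to hspa8 were cnbpa, cmtm6, srp54, erh and si:dkeyp-68b7.7, at 0.0031 to 0.0056. Among the 10 genes themselves, hsp90aa1.2 and hspa4a were nearest to each other at 0.044 and hsp70.1 and hsp90aa1.2 lay at 0.060, whereas hsp70l lay 0.22 from hsp70.3 and 0.62 from hspa8. Over 4 libraries in 2 groups, a small distance mainly means a like difference between the groups.

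Other transcripts differed between the same libraries, where 9.91% of all genes tested were called higher in mutants and 18.6% lower. Keratinocyte markers summed to 295 and 190 TPM in mutant libraries and 50.2 and 38.3 TPM in sibling libraries, with 8 of 8 tested genes higher, krt91 and cldn1 listed at 0 in both siblings and epcam at 0 in all 4. Macrophage markers summed to 1005 and 968 TPM in mutant libraries and 381 and 432 TPM in sibling libraries, with 4 of 6 tested higher. Of these sums ctsl.1 alone gave 558 and 564 TPM in mutant libraries and 189 and 151 TPM in sibling libraries. The genes mpeg1.1, c1qa, c1qb and c1qc were at or near 0 in all 4 libraries. Erythroid markers summed to 145 and 229 TPM in mutant libraries and 992 and 508 TPM in sibling libraries, with 5 of 5 tested lower. The globin gene hbbe1.1 gave 76.9 and 128 TPM of this in mutant libraries and 768 and 231 TPM in sibling libraries. The genes gata1a and alas2 were at or near 0 in all 4 libraries. Neutrophil markers summed to 843 and 1027 TPM in mutant libraries and 520 and 294 TPM in sibling libraries, with 2 of 5 higher, and thrombocyte markers to 317 and 294 TPM in mutant libraries and 408 and 436 TPM in sibling libraries, with 4 of 7 lower and 1 higher. The part of these cell types in the chaperone differences was not tested.

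The immediate early genes, which dissociation and sorting are known to induce as they do heat shock genes, overlapped in their summed level, at 7570 and 6865 TPM in mutant libraries and 7402 and 7624 TPM in sibling libraries. Of 13 tested 2 rose and 2 fell, beside 9.91% of all genes that rose and 18.6% that fell, so neither count stands apart from the background. The AP-1 gene jun read 1291 and 1248 TPM in mutant libraries and 776 and 941 TPM in sibling libraries (limma adjusted p = 0.0152). The stress-induced factor gene atf3 read 167 and 155 TPM in mutant libraries and 48.5 and 69.0 TPM in sibling libraries (limma adjusted p = 0.00645), while junbb and btg2 were the 2 that fell. The part of handling stress in the chaperone levels was not tested.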

How the data were processed

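The authors deposited 1 table of TPM values with a row per gene symbol and a column per library, normalized by gene length and library total. The build GRCz11 and the tools STAR, featureCounts, FastQC and DESeq2 are named in the submitters' processing notes. Their versions, the annotation release and the handling of reads matching several genes: not given in the sources used here.

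The main test was limma (version 3.58.1, under R 4.3.3, lmFit and eBayes with a trend) on log2(TPM + 1) for genes averaging 1 TPM or more, mutant against sibling, with Benjamini-Hochberg adjustment over 12073 genes. Fold changes on that scale understate those of low genes. Whole reads were recovered from ratios between libraries: all 23927 rows above 0 in at least 2 libraries were whole multiples of a step (tolerance 0.0001), and a common length unit gave whole lengths for 96.2% of rows above 0 in all 4. The 2178 rows above 0 in 1 library only are missing from the totals. The limma fit and the recovery of whole multiples were run on simulated data. The length unit was not, nor was the step that multiplied the reads of 1468 rows to make their lengths whole.

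The genes, their classes, the partner and marker lists and the tests were chosen with earlier results of these data known. Named are the 10 genes, hsf1, hsf2, slc20a1b, itga2b, runx1, up to 3 called genes per direction and sub-list with the smallest p, and the 5 genes nearest in profile to hsp70l and to hspa8; other names were chosen after their values were seen. The checks slc20a1b (49.3 and 53.8 TPM in mutant libraries, 39.3 and 42.4 TPM in sibling libraries, limma adjusted p = 0.0827) and runx1 (15.7 and 14.6 TPM in mutant libraries, 8.10 and 7.10 TPM in sibling libraries, limma adjusted p = 0.0129) cannot check the genotype, since the lesion is not described. The call of slc20a1b depended on the scaling. It was called higher under median-of-ratios scaling (limma adjusted p = 0.0406), quantile normalization (limma adjusted p = 0.0218) and voom on recovered reads (limma-voom adjusted p = 0.0378). HSPC markers summed to 447 and 442 TPM in mutant libraries and 542 and 588 TPM in sibling libraries, and neural markers to 18.6 and 14.6 TPM in mutant libraries and 4.11 and 8.15 TPM in sibling libraries. Alternatives covered the pseudocount, filter, scaling, trend, recovered reads, a replicate block and leaving out each library. DESeq2 was not run here.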

Additional observations from a re-analysis of the deposited data

How the results depend on the processing

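The log2 differences of hsp70l, hsp70.1, hsp70.3, hsph1, hsp90aa1.2, hspa8 and hspa4a were negative in all 13 settings of the fit over all genes; hsp90aa1.1, hspa4b and hsp90ab1 changed sign under 1 each, hsp90ab1 to -0.17 under quantile normalization, and the cause was not tested. As 1 library was left out, genes called numbered 0 to 2178 higher and 4 to 3219 lower, the 10 chaperone genes called lower 2 to 8, partner genes called higher 0 to 5 and lower 0 to 31, and the medians of heat-inducible and constitutive genes lay at -1.48 to -1.13 and -0.29 to -0.18. Without mutant replicate 2, where 0 genes were higher, 951 were so at an unadjusted p under 0.05 in limma. With no filter 1321 of 26105 genes were higher and 1124 lower, and 2 partner genes were higher and 16 lower. With at least 5 TPM 778 of 7337 genes were higher and 2195 lower, and the median over all of them was -0.23. In that fit 2 partner genes were higher and 23 lower. Of the 9 chaperone genes tested there 7 were lower, and the heat-inducible median was -1.26. Median-of-ratios scaling gave 2 partner genes higher, beside 1397 of 12073 genes, and medians of -1.09 and -0.12. Voom on recovered reads gave 2, beside 1516 of 12068, and medians of -1.12 and -0.14. Quantile normalization gave 3, beside 1329 of 12073, with 1390 genes lower and a heat-inducible median of -1.30. Counting hsph1 as constitutive gave medians of -1.12 and -0.46, hsp90aa1.1 -1.26 and -0.46, and counting hspa4a as heat-inducible, chosen after seeing the data, -1.12 and 0.030. The difference of hsf2 was 0.044 under median-of-ratios scaling, 0.19 under quantile normalization, 0.016 with voom and -0.18 to 0.076 as 1 library was left out. With the replicate block 981 genes were higher and 1682 lower, and of the 10 genes 7 were lower. Partner genes were 0 higher (2 at an unadjusted p under 0.05 in limma, limma adjusted p of hsf1 0.0643) and 23 lower. Same-numbered libraries deviated together at r = -0.05 across genes. With 2 libraries per group this cannot tell whether they shared a clutch or sort, so the block was kept as an alternative. With 2 libraries per group the adjusted p depends on the spread shared across genes, and of the 10 genes hsp90aa1.1, with 57 to 333 reads, had the least depth.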

Other observations

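Some genes often grouped with heat-inducible chaperones did not pass the test in these libraries; they were chosen after their values were seen. The HSP70 cochaperone gene bag3 read 39.8 and 32.8 TPM in mutant libraries and 37.9 and 31.0 TPM in sibling libraries (log2 difference 0.07, SE 0.16, limma adjusted p = 0.75). The small heat shock protein gene hspb1 read 11.2 and 16.2 TPM in mutant libraries and 1.97 and 22.4 TPM in sibling libraries, so that its sibling libraries differed from each other more than its mutant libraries did.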
